A study of Homo sapiens with 8 samples.

Results

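PICALM and 9 other genes of clathrin-mediated endocytosis were followed in MOLM-13, a human acute myeloid leukemia cell line, after knockdown (KD) of the splicing factor PTBP1. The 10 genes are PICALM, AP2A1, AP2B1, AP2M1, CLTA, CLTB, CLTC, EPN1, DNM2 and BIN1, chosen by name among the 62639 genes summed. Their 173 transcripts belong to the 252562 of the count table that GENCODE version 44 holds. Since the genes were chosen with results of this same comparison known, their values are given as a description, beside the share of all genes, isoforms or exons that met the same rule.

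In all 8 libraries the cells carried a lentiviral construct with constitutive mCherry and a doxycycline (dox) inducible cassette of ΔLNGFR and a short hairpin RNA, and all had 9 days of dox. Cells with the hairpin against PTBP1 (shPTBP1) gave 4 libraries, biological replicates 1 to 4, and cells with a scrambled hairpin (shSCR, labelled shControl) gave the other 4. There was 1 hairpin per group, so an effect of the hairpin other than the loss of PTBP1 cannot be told apart from that loss. Long reads of cDNA were counted per annotated transcript, with 1528449 to 1613342 counts per library. PTBP1 had 10, 15, 13 and 23 counts in shPTBP1 replicates 1 to 4 and 65, 90, 64 and 78 in the shSCR libraries, so that each label matched the level of the targeted gene (edgeR log2 fold change -2.26, adjusted p = 7.18e-05). Its paralog PTBP2 had 185 to 199 counts after shPTBP1 and 1 to 4 after shSCR. All 8 myeloid markers checked (PTPRC, CD33, SPI1, FLT3, LYZ, MPO, CEBPA and CSF3R) had a count. SPI1 had only 1 over all libraries, and FLT3 had 3 to 12 per library. Their summed counts were 1082 to 1253 after shPTBP1 and 976 to 1059 after shSCR, so the groups did not overlap, and the part of this difference in the results below was not tested. Of 4 lymphoid markers 2 were detected, at 0 to 2 counts per library, the 2 erythroid markers were at 0, and 3 epithelial and stromal markers summed to 0 to 6 counts.

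Clathrin-mediated endocytosis takes receptors and other membrane proteins into the cell. The AP-2 complex and helper adaptors such as PICALM and epsins gather cargo at the plasma membrane, clathrin heavy and light chains polymerize into a cage over them, and dynamin cuts the finished vesicle free, after which the coat is removed. PICALM (also called CALM) binds phosphoinositides, clathrin and AP-2, and sorts SNARE proteins of the VAMP family into the vesicle; it is known in leukemia as the partner of MLLT10 in a fusion gene. PTBP1 binds pyrimidine-rich RNA and represses the inclusion of many exons, among them exons that neurons and muscle include, and several clathrin genes, CLTA, CLTB, DNM2 and BIN1, have such tissue-type exons.

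The 3 exons called in the 10 genes, by a change of 10 points or more and an adjusted p below 0.05, were all in PICALM, while the amount of PICALM RNA differed by less than the spread between libraries. PICALM (ENSG00000073921, minus strand, chr11:85957175-86069882 on GRCh38) had 86, 80, 74 and 90 counts in shPTBP1 replicates 1 to 4 and 80, 80, 67 and 86 in shSCR replicates 1 to 4. The groups overlapped, with means of 53.4 ± 3.70 (SD, n = 4) for shPTBP1 and 49.99 ± 4.35 for shSCR in normalized CPM, counts scaled to the size of the library, or a log2 fold change (edgeR) of 0.09 with an SE of 0.11 and an adjusted p of 0.704. All 643 counts of PICALM fell on 3 of its 24 listed transcripts. PICALM-219 (ENST00000532317.5) had 29, 26, 26 and 20 counts after shPTBP1 and 60, 52, 42 and 57 after shSCR. The shSCR libraries were all higher, and from 67.2% ± 5.38 (SD, n = 4) of the gene after shSCR to 30.9% ± 5.88 after shPTBP1 the mean share of this isoform fell by 36.3 percentage points (edgeR diffSpliceDGE, adjusted p = 5.80e-04). PICALM-204 (ENST00000526033.5) had 48, 47, 39 and 54 counts after shPTBP1 and 14, 23, 19 and 25 after shSCR. Here the shPTBP1 libraries were all higher, and the share was 56.8% ± 3.26 against 25.9% ± 5.62, 30.9 points higher (edgeR diffSpliceDGE, adjusted p = 1.54e-04). PICALM-202 (ENST00000393346.8), the rarest of the 3, had 9, 7, 9 and 16 counts after shPTBP1 and 6, 5, 6 and 4 after shSCR. It was below the count filter of the isoform test, and its shares of 12.3% ± 3.92 and 6.84% ± 1.83 came from groups that overlapped. The call rule for isoforms asked for a change of 10 points or more in the mean share together with an adjusted p below 0.05, and 1.12% of the 5464 isoforms tested met it. Of the 11 isoforms of the 10 genes that were tested 3 were called, the pair from PICALM and 1 of CLTC.

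**Figure D1:**
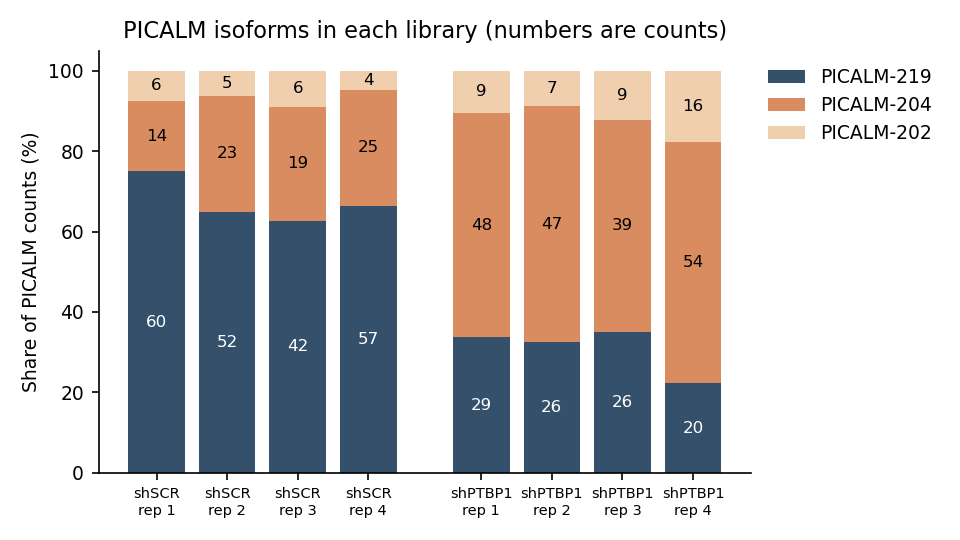
Share of the PICALM counts (percent, vertical axis) on each of its 3 isoforms with counts, as 1 stacked bar per library, with the count printed in each segment. PICALM-219, the lowest segment, takes most of each shSCR bar, and PICALM-204, the middle one, most of each shPTBP1 bar.

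The 3 isoforms are all annotated as protein coding with 20 exons, and differ in the coding region at 2 places. PICALM-219 has a 24-bp exon (chr11:85978070-85978093), its exon 17, which adds 8 codons and which the other 2 isoforms lack. PICALM-204 has as its exon 13 an exon of 129 bp, or 43 codons (chr11:85990250-85990378), which PICALM-219 lacks. PICALM-202 has the same exon from an acceptor 21 bp farther upstream, in a form of 150 bp, or 50 codons (chr11:85990250-85990399). The 24-bp exon starts 12.156 kb after the 129-bp exon ends, with 4 exons shared by the 3 isoforms between them. The lengths of the coding regions, 1830 bases for PICALM-219, 1935 for PICALM-204 and 1956 for PICALM-202, differ by the lengths of these exons alone. The isoforms also differ in the outer ends of their first and last exons, outside the coding region. The 24-bp and 129-bp exons are shown because the called isoforms differ in them, with 100 bases of intron before and 30 after on the transcript strand of GRCh38, the intron in lower case and the exon in capitals. In the 129-bp line the last 21 lower-case bases before the exon are the part that the 150-bp form adds.
PICALM 24-bp exon, chr11:85978040-85978193, minus strand: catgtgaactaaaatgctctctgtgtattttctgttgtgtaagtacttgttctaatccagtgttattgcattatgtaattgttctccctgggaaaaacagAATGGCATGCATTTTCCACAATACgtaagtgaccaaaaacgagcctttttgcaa
PICALM 129-bp exon, chr11:85990220-85990478, minus strand: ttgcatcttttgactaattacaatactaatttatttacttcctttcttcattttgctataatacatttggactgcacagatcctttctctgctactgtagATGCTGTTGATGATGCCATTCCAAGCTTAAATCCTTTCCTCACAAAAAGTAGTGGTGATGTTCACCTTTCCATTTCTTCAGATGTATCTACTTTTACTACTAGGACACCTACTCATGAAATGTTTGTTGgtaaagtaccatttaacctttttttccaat

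Inclusion of an exon was measured as the counts of transcripts that contain it over these plus the counts of transcripts that skip it by an intron. The 24-bp exon was included in 33.7%, 32.5%, 35.1% and 22.2% of the counts in shPTBP1 replicates 1 to 4 and in 75.0%, 65.0%, 62.7% and 66.3% in shSCR replicates 1 to 4. The groups were apart, with the highest shPTBP1 library at 35.1% and the lowest shSCR library at 62.7%, and the edgeR adjusted p of the change was 0.00129. For the 129-bp exon the inclusion was 62.3%, 64.4%, 60.0% and 73.0% after shPTBP1 and 18.9%, 30.7%, 31.1% and 30.5% after shSCR. Again no library of one group reached the other, and the means of 64.9% ± 5.66 (SD, n = 4) and 27.8% ± 5.93 differed by 37.1 points (edgeR adjusted p = 0.00142). The 150-bp form, set against skipping, was included in 23.7%, 21.2%, 25.7% and 44.4% after shPTBP1 and 9.09%, 8.77%, 12.5% and 6.56% after shSCR (edgeR adjusted p = 0.0435). It rests on 4 to 16 including counts per library, and without 1 library its call was lost in all fits but the one without shPTBP1 replicate 2, with an adjusted p of 0.0422 to 0.122 and a change of 14.3 points without shPTBP1 replicate 4. The skipping counts for the 150-bp form were those of PICALM-219 alone, with the counts of PICALM-204 left out. As a share of all PICALM counts this form rose by 5.45 points, below the limit of 10, and the groups overlapped. The same limits of 10 points and an adjusted p below 0.05 were met by 0.917% of the 5124 cassette exons tested, and by 3 of the 23 tested in 6 of the 10 genes, all 3 in PICALM. The groups did not overlap in 8.37% of all exons tested and in 6 of these 23. By size of change the 129-bp and 24-bp exons ranked 9 and 10 among the 47 exons called in all genes. The calls of the 24-bp and 129-bp exons held in each of the 8 fits that left out 1 library.

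**Figure D2:**
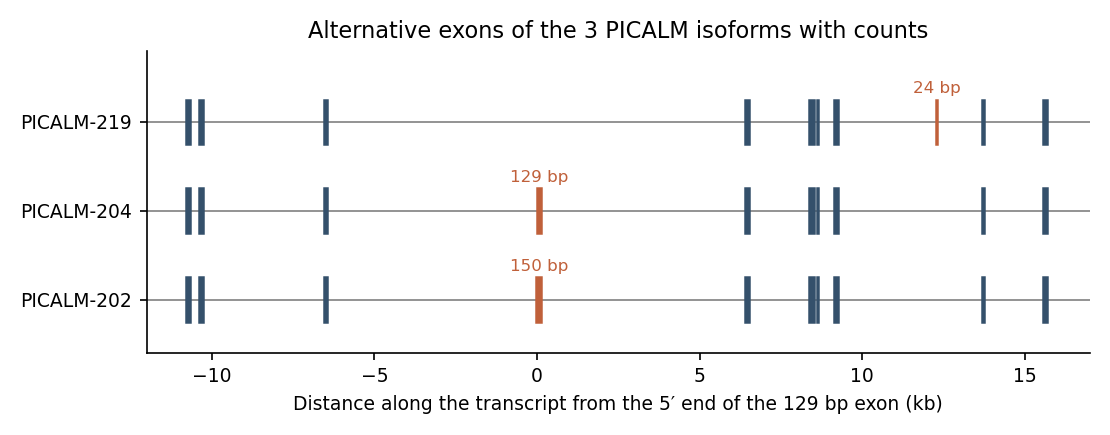
Exons (boxes) of the 3 PICALM isoforms with counts, by distance along the transcript from the 5′ end of the 129-bp exon (kb, horizontal axis), with introns as lines and the first exons and the last one outside the range drawn. The exons of 24, 129 and 150 bp are in orange, and no isoform drawn has both a 24-bp and a 129-bp or 150-bp exon.

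The changes at the 2 places of PICALM are the same counts read from opposite sides, and are not separate results. Among the 10 annotated PICALM transcripts that cover both places, 1 has the 24-bp exon together with the large exon, 2 have the 24-bp exon only, 5 the large exon only, and 2 neither. The transcripts with both exons or with neither were listed at 0 counts, so every count was assigned to an isoform with one or the other. Since the deposited values are counts per annotated transcript and not reads, molecules with other combinations of exons could not be seen here.

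In the 100 bases before each exon the letters TCTT, CTTCT and CTCTCT, short pyrimidine strings of the kind that PTBP1 binds, were searched on both strands, counting overlapping matches. Of the 5119 such windows of tested cassette exons 64.3% hold TCTT, 21% hold CTTCT and 7.95% hold CTCTCT. The window before the 24-bp exon has only the last of these, once. The window before the 129-bp exon holds TCTT 2 times, as do or exceed 30.6% of all windows, and neither of the other strings. Pyrimidines make up 56.0% of the first window, which is also the median over all windows, and 66.0% of the second, a share that 10.5% of windows reach. On the opposite strand neither window holds a match. These are counts of letters, and say nothing of binding.

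Clathrin light chain A, encoded by CLTA (ENSG00000122705, chr9:36190856-36304781), binds along the heavy chain and has 2 small exons that neurons are known to include, of 54 and 36 bp. The 36-bp exon (chr9:36210625-36210660, 12 codons) is carried by 1 counted isoform, CLTA-206 (ENST00000470744.5), with 52, 53, 46 and 44 counts after shPTBP1 and 4, 2, 3 and 3 after shSCR. Every shPTBP1 library had over 10 times the count of every shSCR library, in a gene with 578 to 746 counts per library. Inclusion of the exon was 7.65% ± 0.581 (SD, n = 4) after shPTBP1 and 0.445% ± 0.0964 after shSCR, 7.20 points higher (edgeR adjusted p = 4.33e-07 for the exon and, by diffSpliceDGE, 3.63e-11 for the isoform). The change was below the minimum of 10 points and was therefore not called, and it passed at a minimum of 5 points. Over all genes 1.54% of the exons and 1.81% of the isoforms tested had an adjusted p under 0.05 whatever their change. The 54-bp exon (chr9:36209267-36209320), the other one known from neurons, was at 0 of 5229 counts over the 8 libraries, which allows a share of up to 0.0574%. The sequence of the 36-bp exon stands beside that of a 42-bp exon of AP2B1 described next, in the same layout. Both were chosen for display after their values were seen, since neither was called.
CLTA 36-bp exon, chr9:36210525-36210690, plus strand: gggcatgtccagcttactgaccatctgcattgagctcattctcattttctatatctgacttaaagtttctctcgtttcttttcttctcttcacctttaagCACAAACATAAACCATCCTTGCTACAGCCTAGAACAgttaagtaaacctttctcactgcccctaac
AP2B1 42-bp exon, chr17:35670757-35670928, plus strand: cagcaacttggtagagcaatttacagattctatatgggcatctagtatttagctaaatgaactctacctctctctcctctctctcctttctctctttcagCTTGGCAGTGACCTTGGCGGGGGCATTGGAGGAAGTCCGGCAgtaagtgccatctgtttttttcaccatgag

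The window before the CLTA exon holds TCTT 3 times, as do or exceed 11.6% of windows, and CTTCT once, with 69.0% pyrimidines, a share that 6.08% of windows reach. The remaining CLTA counts were mostly on CLTA-202 (ENST00000345519.10), at 91.2% ± 0.816 (SD, n = 4) after shPTBP1 and 98.1% ± 0.475 after shSCR. The total of CLTA was 625, 710, 586 and 633 counts after shPTBP1 and 700, 578, 651 and 746 after shSCR. The groups overlapped, with a log2 fold change (edgeR) of -0.05 with an SE of 0.09 and an adjusted p of 0.827.

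AP2B1 (ENSG00000006125, chr17:35578046-35726413) encodes the β2 subunit of AP-2, the part that binds clathrin. Its 42-bp exon (chr17:35670857-35670898, 14 codons) was included in 50%, 45.5%, 55.4% and 56.0% of the counts after shPTBP1 and 32.7%, 38.6%, 25.7% and 35.9% after shSCR. The groups did not overlap, and the means of 51.7% ± 4.99 (SD, n = 4) and 33.2% ± 5.57 differed by 18.5 points, but the exon was not called (edgeR adjusted p = 0.0700). The isoform AP2B1-211, which carries the exon, had 36, 38, 48 and 39 counts after shPTBP1 and 28, 19, 17 and 20 after shSCR, and AP2B1-221, which lacks it, 38, 49, 41 and 38 against 67, 31, 47 and 44. Neither was called by diffSpliceDGE (edgeR adjusted p = 0.196 and 0.597), and both were by limma's diffSplice. The third isoform above 5% of the gene in a group, AP2B1-219, which is annotated for nonsense-mediated decay, held 3.83% ± 1.22 and 7.67% ± 1.73 of the counts. The 86-bp exon that AP2B1-219 alone carries did not pass the test (3.84% against 7.71% inclusion, edgeR adjusted p = 0.329). The window before the 42-bp exon holds CTCTCT 5 times, which 0.215% of windows match or exceed, and TCTT once. Its pyrimidine share of 64.0% is reached by 15.6% of windows. The share for CTCTCT was the lowest among all strings and exons searched here. It is not the result of a test, and these counts of letters again say nothing of binding. In total AP2B1 had 88, 105, 102 and 96 counts after shPTBP1 and 113, 59, 79 and 79 after shSCR. The shSCR libraries lay on both sides of the shPTBP1 ones, and edgeR gave a log2 fold change of 0.27, with an SE of 0.16 and an adjusted p of 0.388.

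**Figure D3:**
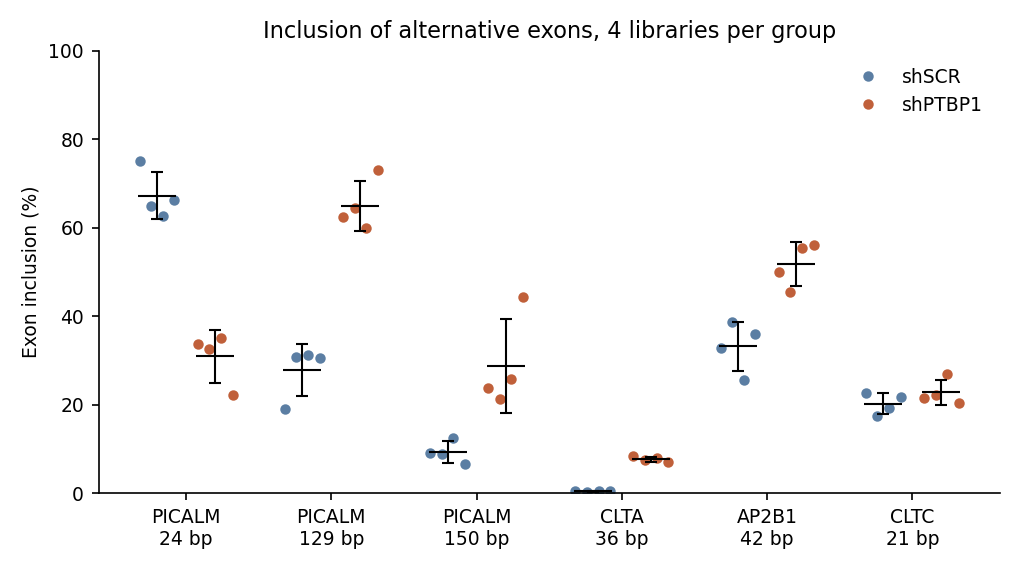
Inclusion (percent, vertical axis) of 6 alternative exons of PICALM, CLTA, AP2B1 and CLTC, with 1 point per library and the mean ± SD of the 4 libraries of each group in black. The groups are apart for the 3 PICALM exons, the CLTA exon and the AP2B1 exon, and overlap for the CLTC exon. The 129-bp and 150-bp forms of PICALM are each set against PICALM-219 alone, without the counts of the other form.

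The clathrin heavy chain gene CLTC (ENSG00000141367, chr17:59619684-59696956), whose protein forms the legs of the cage, has a 21-bp exon near its 3′ end (chr17:59687001-59687021, 7 codons). It was included in 20.5% to 26.9% of the counts after shPTBP1 and 17.5% to 22.6% after shSCR. The groups overlapped, at means of 22.8% ± 2.85 (SD, n = 4) and 20.2% ± 2.32 (edgeR adjusted p = 0.754). In the 100 bases before this exon TCTT and CTTCT occur once each. Pyrimidines make up 66.0% of them, a share that 10.5% of windows reach, as for the 129-bp exon of PICALM. The main isoforms, CLTC-215 without the exon and CLTC-205 with it, held 66.1% ± 3.23 and 21.3% ± 3.83 after shPTBP1 and 61.4% ± 2.97 and 17.4% ± 1.95 after shSCR. The called isoform of CLTC is CLTC-209 (ENST00000498711.1), annotated as a retained intron, with 20, 0, 0 and 0 counts after shPTBP1 and 28, 35, 32 and 34 after shSCR. Only shPTBP1 replicate 1 had any after shPTBP1, and the groups did not overlap, at 1.51% ± 3.02 and 11.7% ± 1.88 of the gene (edgeR diffSpliceDGE, adjusted p = 0.0121). Without 1 library the call held only without shPTBP1 replicate 1 (adjusted p = 6.45e-10) or shSCR replicate 1 (adjusted p = 0.0376), and in the other 6 fits the edgeR adjusted p was 0.0586 to 0.0774. This transcript was thus at 0 in 3 libraries and at 20 or more in the other 5. CLTC as a whole had 331, 240, 260 and 293 counts after shPTBP1 and 313, 286, 241 and 279 after shSCR. These overlapped, with a log2 fold change (edgeR) of 0.03 with an SE of 0.09 and an adjusted p of 0.923. Without CLTC-209 and AP2M1-230, a transcript of AP2M1 also at 0 in some libraries, it was 0.18 (edgeR adjusted p = 0.305). The choice to leave out these transcripts was made after the data were seen.

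Clathrin light chain B, CLTB (ENSG00000175416, chr5:176392501-176416539), had 24, 22, 15 and 18 counts after shPTBP1 and 28, 20, 17 and 19 after shSCR. The groups overlapped (edgeR log2 fold change -0.07, SE 0.23, adjusted p = 0.917). All 163 counts were on CLTB-202, which lacks the 54-bp exon known from neurons (chr5:176396479-176396532), so its inclusion was 0 of 163 counts, which allows a share of up to 1.84%.

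AP2M1, the μ2 subunit of AP-2 that recognizes sorting signals in cargo tails, was the only one of the 10 genes called at the gene level. AP2M1 (ENSG00000161203, chr3:184174689-184184214) had 596, 494, 508 and 515 counts after shPTBP1 and 647, 703, 648 and 611 after shSCR. The highest shPTBP1 library, replicate 1, lay below the lowest shSCR library, replicate 4. In normalized CPM the shSCR mean was 417 ± 26.9 (SD, n = 4) and the shPTBP1 mean 342 ± 23.7, or a log2 fold change (edgeR) of -0.29 with an SE of 0.07 and an adjusted p of 0.0312. In bulk RNA, less AP2M1 RNA per cell and fewer cells that make it cannot be told apart. The call was lost, at edgeR adjusted p of 0.0727 to 0.0987, without shPTBP1 replicate 2, 3 or 4 or without shSCR replicate 2 or 3, while the log2 fold change stayed between -0.34 and -0.25. Of all 7597 genes tested 5.54% were called, 3.19% lower and 2.36% higher, and in 12.7% the groups did not overlap, as in 1 of the 8 genes here. The main isoform AP2M1-202 held 96.4% ± 2.53 and 96.1% ± 1.79 of the counts. None of the 12 exons of AP2M1 that were tested passed, and 2 of them, of 33 and 32 bp, rest on 10 including counts after shPTBP1 and 11 after shSCR. Most of these exons were tested only against AP2M1-230, an isoform whose coding region is not defined in the annotation. It had 24, 0, 0 and 13 counts after shPTBP1 and 19, 19, 23 and 0 after shSCR.

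AP2A1, the α subunit (ENSG00000196961, chr19:49767001-49807114), had 32, 37, 34 and 48 counts after shPTBP1 and 44, 42, 43 and 60 after shSCR. Its groups overlapped through shPTBP1 replicate 4, with a log2 fold change (edgeR) of -0.30 with an SE of 0.18 and an adjusted p of 0.394. AP2A1-201 held 98.2% ± 2.11 (SD, n = 4) of them after shPTBP1 and all of them after shSCR. Epsin 1, EPN1 (ENSG00000063245, chr19:55675226-55709858), which bends membrane by inserting a helix, had 9, 9, 12 and 22 counts after shPTBP1 and 20, 18, 8 and 15 after shSCR. These overlapped widely (edgeR log2 fold change -0.21, SE 0.35, adjusted p = 0.817). EPN1-201 had 8 to 15 counts in every library, and EPN1-202, which adds a 75-bp exon, had 7 counts in shPTBP1 replicate 4, 6 each in shSCR replicates 1 and 2, and none elsewhere. EPN1-202 also ends farther downstream, at 16219 bases against 2355 for EPN1-201, so its counts do not single out that exon.

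**Figure D4:**
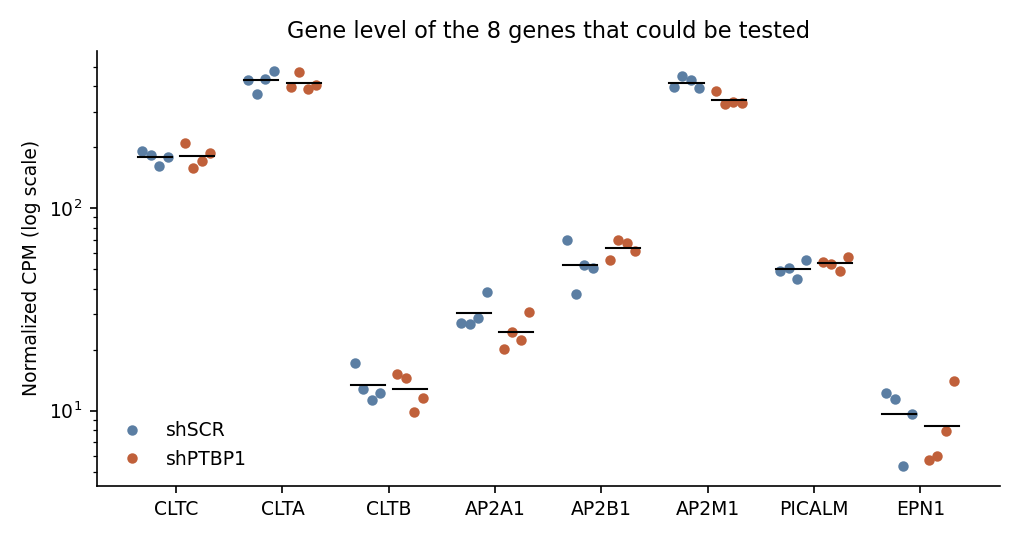
Normalized CPM (log scale, vertical axis) of the 8 of 10 genes that passed the filter on low counts, with 1 point per library and a bar at the mean of each group. Only for AP2M1 do all shPTBP1 libraries lie below all shSCR libraries; CPM is not per length, so levels of different genes are not compared.

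Dynamin 2 (DNM2, ENSG00000079805, chr19:10718055-10833488), the GTPase that cuts the neck of the vesicle, and BIN1 (ENSG00000136717, chr2:127048027-127107288), a curvature-sensing BAR protein, were too low to test. DNM2 had 9, 6, 4 and 5 counts after shPTBP1 and 9, 2, 10 and 6 after shSCR, and at this depth a difference was not detectable. Of all 51 counts, 26 were on isoforms that cover its alternative exons. Among these 26, the first of its pair of 139-bp exons that replace each other was in 21 and the second in 5, a 30-bp exon known from muscle was in 0, and a 12-bp exon was in 7. BIN1 had 2, 0, 1 and 0 counts after shPTBP1 and 0, 0, 1 and 1 after shSCR. Its 45-bp exon known from muscle and its 93-bp exon known from brain were both at 0 of 5 counts, which allows a share of up to 60%, so that a change was not detectable. The DNM2-202, DNM2-203, DNM2-201, DNM2-204, DNM2-215 and DNM2-221 isoforms and the BIN1 isoforms BIN1-211 and BIN1-204 each had at most 8 counts in a library, and their shares are not given.

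Of 90 further genes of the clathrin pathway, listed from general knowledge, 82 had a count and 46 could be tested, of which 4 were lower and 1 higher after PTBP1 KD, where 3.19% of all genes tested were called lower and 2.36% higher. Their median log2 fold change was -0.09, that of the 8 tested genes above -0.06, and that of all genes tested -0.00014. Among 17 tested adaptors and cargo selection genes 1 was called. NECAP2, which binds the adaptor complexes, had 67.8 to 88.6 CPM after shPTBP1 and 117 to 126 after shSCR, or a log2 fold change (edgeR) of -0.62 with an SE of 0.09 and an adjusted p of 0.00222. Among 11 genes of membrane bending, fission and uncoating 1 was lower and 1 higher. BIN2, a BAR protein of white blood cells, had 129 to 176 CPM against 244 to 275 (edgeR log2 fold change -0.74, SE 0.09, adjusted p = 4.27e-04). HSPA8, the chaperone that strips clathrin from vesicles and also folds many other proteins, had 5372 to 5859 CPM against 4152 to 5128 (edgeR log2 fold change 0.26, SE 0.06, adjusted p = 0.0332). The groups of these 3 genes did not overlap, and the call of HSPA8 held only in the fits without shSCR replicate 3 or 4.

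Of 6 tested cargo genes, which include the transferrin receptor TFRC, 1 was lower. VAMP3, a SNARE of recycling endosomes, had 47.6 to 67.8 CPM after shPTBP1 and 79.3 to 99.97 after shSCR. All shPTBP1 libraries lay below all shSCR libraries (edgeR log2 fold change -0.55, SE 0.12, adjusted p = 0.0193), and the call was lost without shSCR replicate 2 (0.0543) or 4 (0.0540). VAMP2 and VAMP8, the other SNAREs of the list, were not called, but their values lay the other way without overlap. So did those of the uncalled cargo gene M6PR (edgeR log2 fold change 0.18, adjusted p = 0.105). The groups did not overlap in 4 of the 6 cargo genes and in 11 of all 46 pathway genes tested, beside 12.7% of all genes tested. VAMP2 had 15.1 to 19.8 CPM after shPTBP1 and 9.34 to 14.7 after shSCR (edgeR log2 fold change 0.53, adjusted p = 0.196), and VAMP8 1801 to 1940 against 1682 to 1799.9 (edgeR log2 fold change 0.10, adjusted p = 0.271). Of 12 tested clathrin adaptors of the Golgi and endosomes 1 was lower. SYNRG, a partner of the AP-1 complex, had 13.9 to 19.1 CPM against 30.7 to 35.6 (edgeR log2 fold change -0.99, SE 0.17, adjusted p = 0.00447), also without overlap. The calls of NECAP2, BIN2 and SYNRG held in all 8 fits that left out 1 library. None of the 24 isoforms and 43 exons tested in the 90 genes was called by edgeR, where 1 of each had an adjusted p under 0.05 with a change under 10 points.

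**Figure D5:**
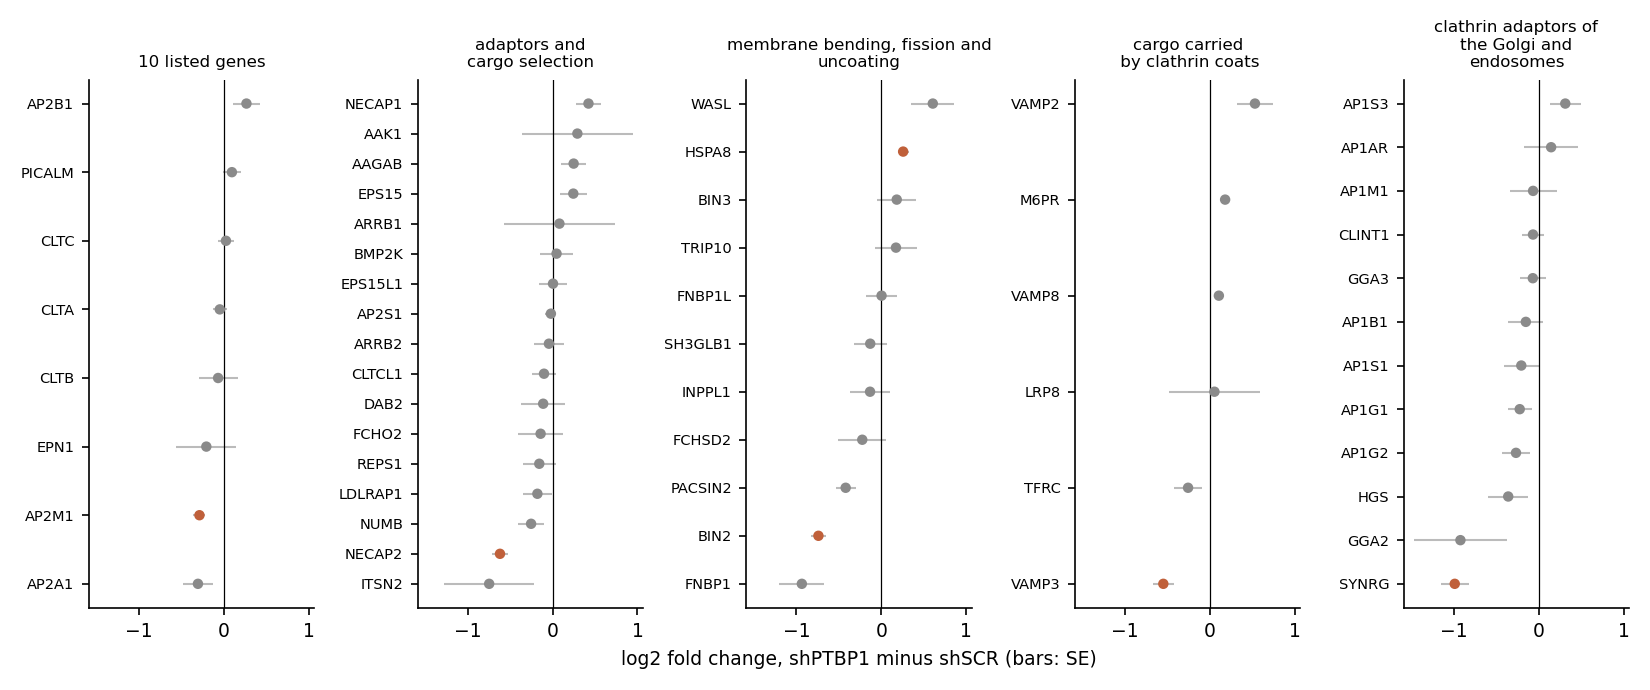
Log2 fold change of gene level (shPTBP1 minus shSCR, horizontal axis, with SE bars) for the 8 tested genes of the 10 and the 46 other tested genes of the clathrin pathway, in panels by role. Called genes are in orange: AP2M1, NECAP2, BIN2, VAMP3 and SYNRG lie below 0 and HSPA8 above.

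That isoform and exon belong to AP2S1, the σ2 subunit of AP-2 (chr19:46838136-46850846), named here after its values were seen. AP2S1-203, which skips a 150-bp coding exon (chr19:46845993-46846142, minus strand), had 17, 22, 18 and 19 counts after shPTBP1 and 51, 48, 41 and 42 after shSCR. The groups were well apart in a gene with 764 to 888 counts per library. The share of AP2S1-203 was 2.31% ± 0.193 (SD, n = 4) after shPTBP1 and 5.39% ± 0.519 after shSCR (edgeR diffSpliceDGE, adjusted p = 1.02e-04), and inclusion of the exon 97.7% ± 0.191 against 94.6% ± 0.527 (edgeR adjusted p = 0.00233). The total of AP2S1 had a log2 fold change (edgeR) of -0.02 with an SE of 0.06 and an adjusted p of 0.913.

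The alternative exons of PICALM (24, 129 and 150 bp), CLTA (36 bp), AP2B1 (42 bp) and CLTC (21 bp) all have lengths that are multiples of 3, so that the reading frame continues with or without them. Of the 23 exons tested in the 10 genes 12 have such a length (52.2%), beside 44.5% of all 5124 exons tested and 57.4% of the 47 called. The 10 genes and all tested genes thus contained many frame-keeping exons, and no difference is read from these shares. Of the 3 called exons of PICALM, the 129-bp and 150-bp forms had more inclusion after shPTBP1 and the 24-bp exon less. The 150-bp form was called only against skipping, and as a share of all PICALM counts its groups overlapped. The CLTA and AP2B1 exons, which were not called, were included more in every shPTBP1 library than in any shSCR library. Over all genes, 29 of the called exons had more inclusion and 18 less.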

How the data were processed

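The authors read cDNA of total RNA on a nanopore PromethION, aligned the reads to hg38 with minimap2, kept those above a mapping quality of 50, and obtained transcript counts with StringTie. Tool versions and the annotation are not given in the sources used here. The deposited counts are whole numbers per annotated transcript, without normalization. A second deposited table, named TPM, equals CPM, each count scaled to its library total, and was not used.

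Transcripts were matched by Ensembl identifier to GENCODE version 44 (GRCh38, the same build), which held 252562 of 254070, and summed per gene. For genes, edgeR 4.0.16 was used with its quasi-likelihood F test (TMM, filterByExpr with its minimum count of 10), group as the only term. Isoforms were tested with diffSpliceDGE. Exon inclusion was tested in edgeR with the library as a block and the interaction of inclusion with group, for exons with 10 or more including plus skipping counts in at least 4 libraries and 10 on the smaller side in all. P values are adjusted by Benjamini-Hochberg over all features tested, and the methods were tested on simulated data. There 36% of genes with a true log2 change of 0.5 were called, and 89% of those with 1. Of exons with a true change of 10 points 34% had an adjusted p below 0.05, and 100% of those with 30. The changed exons were drawn only from exons with higher counts and intermediate inclusion. These shares therefore do not hold for exons with few counts. A gene or exon that was not called is therefore not shown to be unchanged. SEs were derived from the log2 fold change and its F statistic. The limit for a count of 0 is 3 counts and holds counting error alone, and PCR copies of a cDNA are not independent molecules.

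The members and lists were chosen with earlier results of these data known. All 10 genes are named. Of the other pathway genes those called are named, and beside these TFRC, VAMP2, VAMP8, M6PR and AP2S1. Isoforms of the 10 genes are named from a mean share of 5% in a group. Exons were not named strictly by size of change. The AP2M1 exons of 33 and 32 bp changed by 24.0 points on few counts and were given only briefly. The CLTC exon of 21 bp changed by 2.53 points and was described in full. Correlations across genes between libraries of the same replicate number, after removal of the group means, were -0.0328 to 0.00889, so the numbers were not taken as pairs. Alternatives were DESeq2 1.42.0, limma 3.58.1 (voom, diffSplice), other filters, size factors and minimum changes, a quasi-binomial model, a replicate block, and leaving out each library. R 4.3.3 and Python 3.11.15 were used.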

Additional observations from a re-analysis of the deposited data

Results flagged for a closer look

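In 7 of 60 sets of 4 libraries the most extreme library stood apart from the others by Dixon's criterion, which chance meets in about 1 of 20 sets of continuous values. The sets of CLTC-209 and EPN1 below met it through ties, since their other libraries were all at 0% or all at 100%. No excess over chance is read from the 7. At the gene level, shPTBP1 replicate 1 had 377 CPM of AP2M1, nearer to shSCR than the 326 to 334 of the other shPTBP1 libraries. AP2A1 was at 38.5 CPM in shSCR replicate 4, where the others had 26.7 to 28.7. Among isoforms, CLTC-209 was at 6.04% of its gene in shPTBP1 replicate 1 and at 0 in the other 3. EPN1-202 held 31.8% and EPN1-201 68.2% of the EPN1 counts in shPTBP1 replicate 4, where the other shPTBP1 libraries had all counts on EPN1-201. In PICALM, shSCR replicate 1 had a PICALM-204 share of 17.5% and a 129-bp exon inclusion of 18.9%, below the other shSCR libraries (28.4% to 29.1%, and 30.5% to 31.1%) and so farther from the shPTBP1 libraries. The 2 PICALM values are the same counts, as are the 2 of EPN1.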

How the results depend on the processing

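The PICALM differences at the 24-bp and 129-bp exons and of PICALM-204 and PICALM-219 kept their direction and call in every edgeR and limma setting run, and with each library left out the change was -37.9 to -33.5 points for the 24-bp exon and 34.2 to 38.8 for the 129-bp exon. A quasi-binomial model with the replicate number as a block lost the calls of the PICALM exons. Its adjusted p was 0.125, 0.112 and 0.380 for the 24-bp, 129-bp and 150-bp exons. The same model without the block gave 0.0242, 0.0244 and 0.133. Whether the replicate numbers pair the libraries is not known, and the main fits did not take them as pairs. With all PICALM counts in the denominator the changes of the 129-bp and 150-bp exons were 30.9 and 5.45 points. The replicate block in edgeR left 0 of the 10 genes called (AP2M1, adjusted p = 0.0629), and also ended the calls of HSPA8 (0.0673) and CLTC-209 (0.182). Limma's diffSplice called 155 isoforms in place of 61. Leaving out 1 library gave 184 to 358 genes in place of 421, 0 to 1 of the 10 genes, and 3 to 5 pathway genes, with the fewest genes without shPTBP1 replicate 3 and the fewest pathway genes without shSCR replicate 2. Isoforms called were 42 to 54 and exons 35 to 44. Values near 0 changed sign when 1 library was left out: the log2 fold changes of CLTC (-0.049 to 0.084), CLTA (-0.11 to 0.012) and CLTB (-0.16 to 0.080) and the share of AP2M1-202 (-0.32 to 1.45 points). The cause of these changes was not tested. DESeq2 called 318 genes, 154 lower and 164 higher, where edgeR called 242 lower and 179 higher, and called 6 pathway genes, 4 lower and 2 higher. It gave an adjusted p for 6 of the 10 genes and called AP2M1 (0.0142). At 67 to 90 PICALM counts per library a share carries an error of several points, and DNM2 and BIN1 are below what these libraries can resolve.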

Other observations

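Over the 8 libraries, the tested genes whose log2 CPM followed that of PICALM most closely among 7596 others were ZNF280D (Pearson r = 0.944), C5orf24 (r = 0.928) and SCRN1 (r = 0.918). These are descriptions over 8 points that share their library depth and group, without a test. The log2 fold changes of these genes were 0.40, 0.36 and 0.13, and none was called (edgeR adjusted p = 0.494, 0.627 and 0.722).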
